A study of Mus musculus with 17 samples.

Results

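The ligands and receptors that steer growing axons were examined in the brain of a mouse model of Parkinson's disease (PD). Members were chosen by gene symbol, as the semaphorins, plexins, neuropilins, ephrins, Eph receptors, Slits, Robo receptors, netrins, Dcc and the Unc5 receptors. Of the 20328 genes listed in the RNA-seq table, 69 were members, 35 ligands and 34 receptors in 12 families, and all 69 passed the filter on low counts. RNA was sequenced from 2 healthy controls (sham), 1 library of the 6-OHDA-induced PD model and 2 libraries of the NDST3-treated PD model. All mice were wild-type ICR mice, 8 weeks old at the operation. The lesion was a unilateral injection of 6-hydroxydopamine (6-OHDA, 10 µg/µl), a toxin taken up by dopaminergic neurons, into the substantia nigra. The NDST3-treated mice received in addition 2 µl of an AAV9 vector, 5 days after the lesion. In this vector the CMV promoter, which is active in many cell types, drives human NDST3, an enzyme of heparan sulfate synthesis. Lesioned mice without NDST3 received saline, and no library of an empty vector was analysed here. The labels give the tissue as brain, and a figure legend of the study names the substantia nigra for an RNA comparison of control and 6-OHDA mice without tying it to these libraries. The day of collection and the number of mice behind each library are not given in the sources used here, so p-values measure only the spread between these libraries. H3K27 acetylation (H3K27ac) from CUT&RUN, open chromatin from ATAC-seq and mean expression of 9 clusters of single cells were available for the same genes.

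Guidance cues act in pairs of ligand and receptor. Class 3 semaphorins are secreted and bind neuropilins, which signal with plexins, whereas most other semaphorins sit in the membrane and bind plexins directly. Ephrins are membrane ligands of the Eph receptor tyrosine kinases, and both partners can signal. Slits repel axons through Robo receptors, and netrins attract through Dcc and repel through Unc5 receptors. Several of these genes also act outside neurons: Plxnd1, Nrp1, Ephb4 and Efnb2 are known from blood vessels, and Sema4d and Plxnb2 are found on immune and glial cells. In the midbrain, netrin, Slit and semaphorin signals guide the axons of dopaminergic neurons during development.

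The members were expressed at very different levels. FPKM, which divides the count by transcript length and depth, is the only scale used to compare genes with each other. The highest member was Efnb3, a ligand known from the midline of the nervous system, with a mean of 56.8 FPKM over the 5 libraries (46.7 to 67.8). The next was Sema7a, a semaphorin anchored by a lipid, with 35.5 FPKM (26.9 to 43.4), and the ranges of these genes did not overlap. Sema6b (15.6 to 27.8 FPKM) overlapped Sema7a, and Sema6d, Plxnb2, Sema4d and Plxnb1, with means from 20 to 21.3 FPKM, could not be ordered beyond their spread. The lowest were Ntn5 (mean 0.134 FPKM), Robo3 (0.165 FPKM) and Epha1 (0.2 FPKM). The other leading members of their families were Plxnb2 (21.2 FPKM), Ephb1 (17.3), Unc5b (12.3), Epha4 (11), Nrp1 (10.2), Slit1 (10.2), Efna3 (7.73), Ntn1 (7.59), Sema3f (7.24) and Robo1 (6.98).

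**Figure D1:**
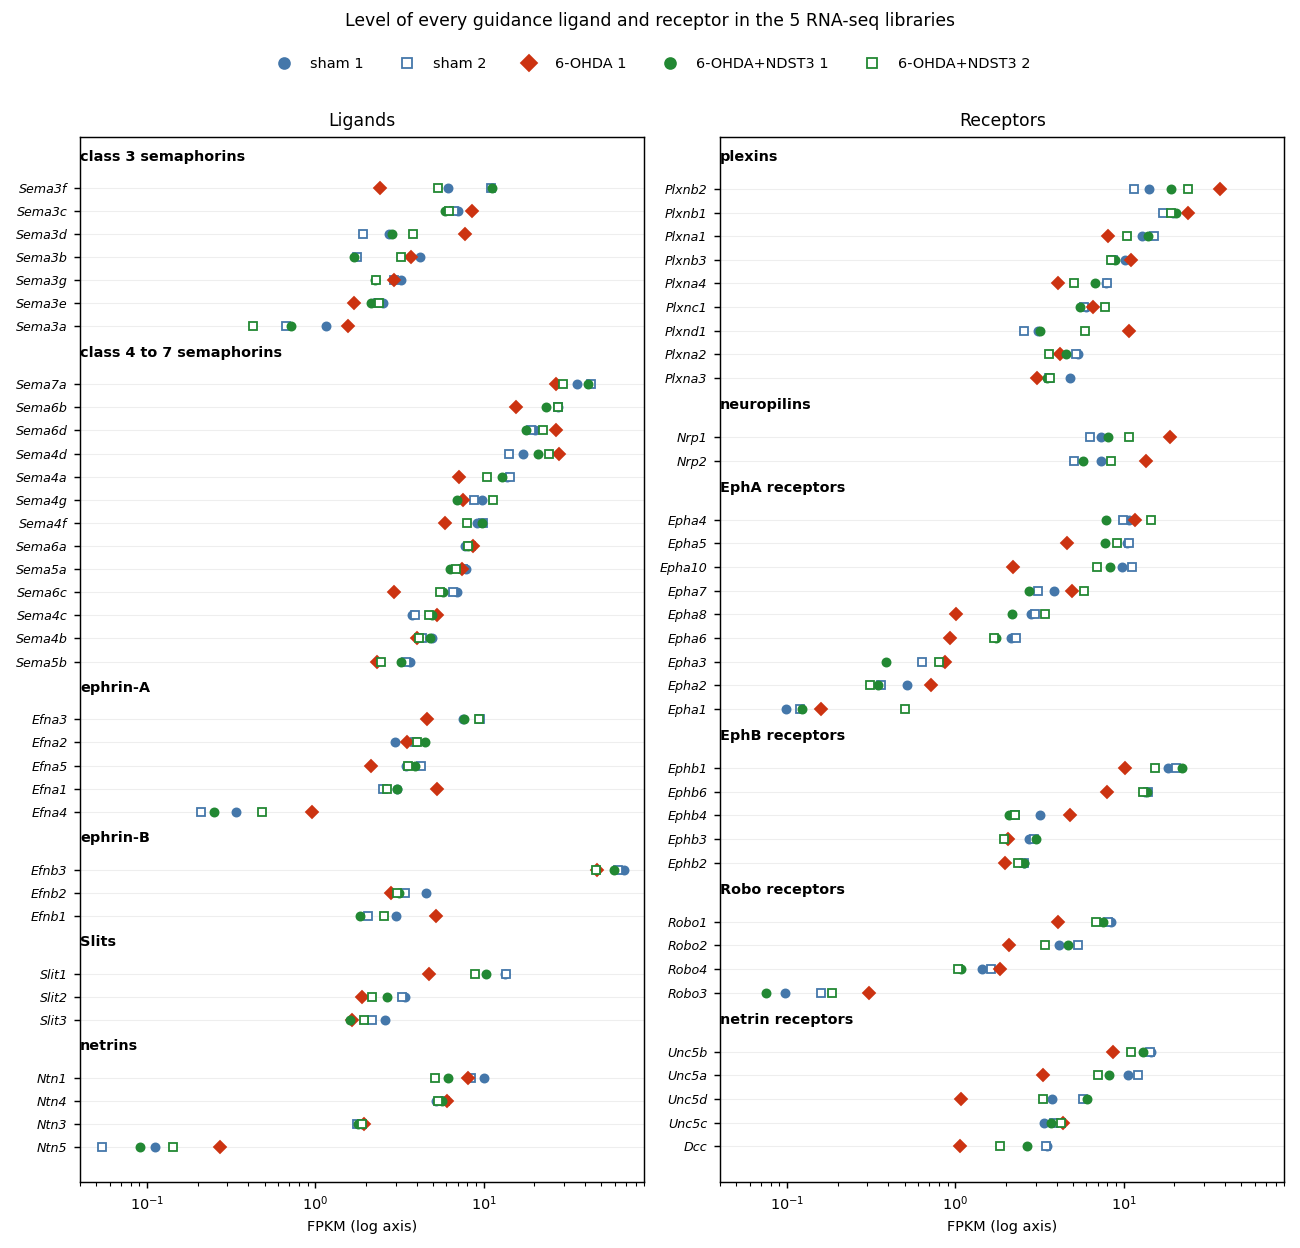
FPKM on a log axis of each of the 69 members in each library, with ligands on the left and receptors on the right, ordered within a family by mean FPKM. Circles and squares are the replicates of sham (blue) and of the NDST3-treated PD model (green), and the red diamond is the single 6-OHDA library, which lies below the other libraries for Epha10 (2.19 FPKM) and Slit1 (4.75 FPKM) and above them for Nrp1 (18.7 FPKM) and Plxnb2 (37.1 FPKM).

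Marker genes of cell types and brain regions differed between the libraries, and the 6-OHDA library stood apart. The 10 neuron markers summed to 7152 and 7853 CPM in sham, 2602 CPM in the 6-OHDA library and 6229 and 5392 CPM with NDST3. The 10 markers of dopaminergic neurons, which take up the toxin, summed to 954 and 915 CPM in sham, 170 CPM in the 6-OHDA library and 297 and 280 CPM with NDST3. The 5 markers of serotonergic neurons, which lie outside the substantia nigra, summed to 339 and 166 CPM, 7.18 CPM, and 170 and 132 CPM in the same order. The study describes the 6-OHDA model as also affecting neurons of noradrenaline and serotonin signalling. Hypothalamic markers went the other way, with 11.9 and 14.8 CPM in sham, 199 CPM in the 6-OHDA library and 20 and 18.4 CPM with NDST3. Among glial, vascular and immune lists, microglia markers summed to 486 and 375 CPM in sham, 2605 CPM in the 6-OHDA library and up to 1463 CPM with NDST3, and those of mural cells or fibroblasts to 471 and 318 CPM, 1200 CPM, and 239 and 310 CPM. Endothelial markers lay nearer together, at 322 and 278 CPM, 427 CPM, and 253 and 286 CPM. Replicate 2 of the NDST3-treated PD model stood apart in choroid plexus markers, with 1130 CPM against 20.7 to 61.7 CPM elsewhere. Markers of thalamus and tectum summed to 210 and 315 CPM in sham, 259 CPM in the 6-OHDA library and 268 and 398 CPM with NDST3. Of these 5 genes, 4 were lower and 1 higher in the 6-OHDA library than in sham. Pou4f1 (9.61 and 18.8 CPM in sham) and Pax7 (14.9 and 15.1 CPM) were at 0.716 and 0.678 CPM there. In bulk tissue, fewer cells of a type, less RNA per cell and a different brain region sampled cannot be told apart.

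**Figure D2:**
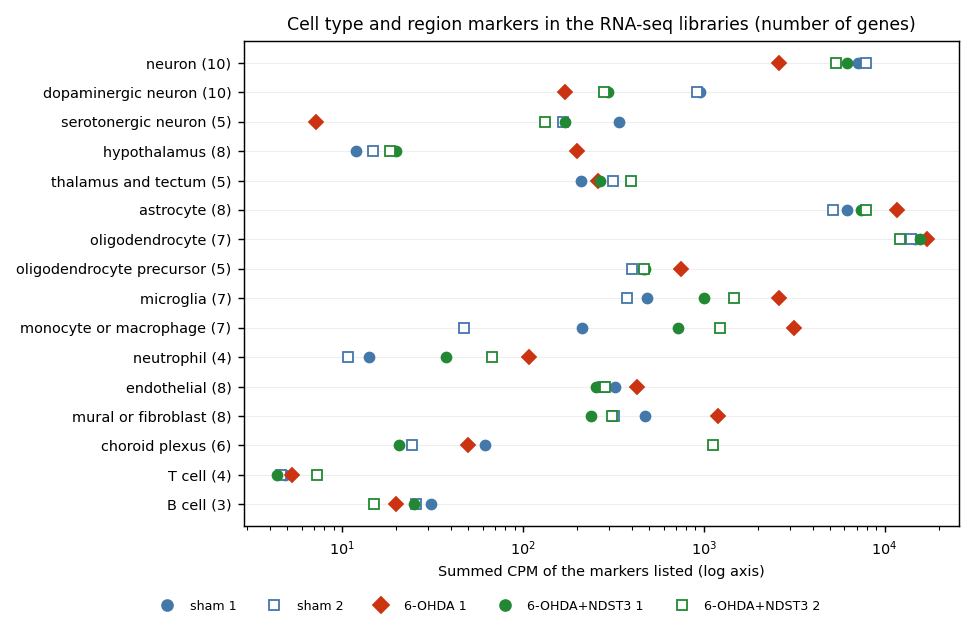
Summed CPM, on a log axis, of 16 lists of cell type and region markers in each RNA-seq library, with the number of listed genes in parentheses. The 6-OHDA library (red diamond) lies lowest for neuron (2602 CPM), dopaminergic neuron (170 CPM) and serotonergic neuron markers (7.18 CPM) and highest for hypothalamus (199 CPM) and microglia markers (2605 CPM).

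In the 6-OHDA-induced PD model, more guidance genes were lower than higher. Against sham, 22 of the 69 members fell (31.9%) and 9 rose (13%) when p-values of the quasi-likelihood test of edgeR were adjusted over all genes (Benjamini-Hochberg, threshold 0.05). Across all 19300 genes tested, 17.1% were called lower and 18.8% higher, 35.8% in all against 44.9% of the members. The median log2 fold change of the members was -0.21, beside 0.00 for all genes. By the rule of a 2-fold change and an unadjusted p under 0.05, 14 members were lower and 8 higher, beside 10.1% and 14.4% of all genes (24.5% in all). The unadjusted p alone was under 0.05 for 43 members, beside 47.9% of all genes. The 6-OHDA library lay outside both sham libraries for 65 members, 27 higher and 38 lower, beside 45.3% and 44.3% of all genes (89.7% in all). Ligands (10 fell, 4 rose) and receptors (12 fell, 5 rose) both held more falls than rises. The 6-OHDA group has 1 library, and the test takes its spread from the other groups. Without sham replicate 1 or without sham replicate 2, 0 members passed the adjusted threshold by edgeR, while 34 and 30 had an unadjusted p under 0.05, and the count at 2-fold was then 27 and 14.

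Of the 5 netrin receptors, 4 were called lower. Their summed level was 35.8 and 39.5 FPKM in sham and 18.3 FPKM in the 6-OHDA library. Unc5d (chromosome 8, 28646717 to 29219671 on GRCm38) had 36 and 57.6 CPM in sham, 10.6 CPM in the 6-OHDA library and 60.2 and 31.3 CPM with NDST3. Its log2 fold change between the 6-OHDA library and sham was -2.14 (SE 0.52, edgeR adjusted p = 0.0324), and -1.76 without sham replicate 2. Unc5a, another repulsive netrin receptor (chromosome 13, 54945151 to 55006018), had 49.9 and 58.5 CPM in sham, 17.2 CPM in the 6-OHDA library and 46.8 and 34.7 CPM with NDST3, and fell by 1.66 in log2 units (SE 0.24, edgeR adjusted p = 0.00996). Dcc, the receptor that turns axons towards netrin, had 38 and 39.6 CPM, 11.9 CPM, and 29.7 and 19.7 CPM in the same order. It fell by 1.71 (SE 0.28, edgeR adjusted p = 0.0127). Unc5b, the highest of the family and known from vessels as well as axons, had 89.4 and 93.2 CPM in sham, 53.3 CPM in the 6-OHDA library and 82.7 and 66.9 CPM with NDST3, a log2 fold change of -0.78 (edgeR adjusted p = 0.0208). In all 4 genes the 6-OHDA library was the lowest of the 5. Unc5c was the exception, with 32.9 and 39.8 CPM in sham and 42.7 CPM in the 6-OHDA library (edgeR adjusted p = 0.302). Of their ligands, 0 of 4 netrins passed the adjusted threshold by edgeR and 1, Ntn5, had an unadjusted p under 0.05. Ntn1, the main netrin of the ventral midline, had 61 and 53.1 CPM in sham, 49.3 CPM in the 6-OHDA library and 38.3 and 30.7 CPM with NDST3, a log2 fold change of -0.21 (SE 0.18) with 6-OHDA.

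Slit1, Slit2, Robo1 and Robo2 fell. Slit1 (chromosome 19, 41597824 to 41747275), a repellent for axons, had 93.1 and 94.5 CPM in sham, 32.7 CPM in the 6-OHDA library and 70.6 and 63.4 CPM with NDST3. It fell by 1.52 in log2 units (SE 0.12, edgeR adjusted p = 0.00823), and Slit2 fell by 0.83 (edgeR adjusted p = 0.0283). For Slit3 the log2 fold change was -0.55 (edgeR adjusted p = 0.0859). The Slits summed to 19.4 and 19 FPKM in sham and 8.28 FPKM in the 6-OHDA library. Robo1 had 76.2 and 77.7 CPM in sham, 36.5 CPM in the 6-OHDA library and 70.6 and 61.1 CPM with NDST3, a log2 fold change of -1.08 (SE 0.13, edgeR adjusted p = 0.00865). Robo2 fell by 1.17 (edgeR adjusted p = 0.0329). Robo4, which belongs to endothelial cells, had 5.67 and 6.81 CPM in sham and 7.42 CPM in the 6-OHDA library (log2 fold change 0.25, edgeR adjusted p = 0.444), and the small counts of Robo3 gave 1.13 (SE 0.66).

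Of the 14 Eph receptors 5 fell and 1 rose, and the EphA receptors that fell were Epha5, Epha6, Epha8 and Epha10. Epha10 (chromosome 4, 124881530 to 124917801), an Eph receptor without kinase activity, had 54.3 and 66 CPM in sham, 12.2 CPM in the 6-OHDA library and 47.8 and 37.4 CPM with NDST3. It fell by 2.31 in log2 units, the largest fall of the 69 members (SE 0.23, edgeR adjusted p = 0.00823). Epha8 had 13.9 and 15.4 CPM, 5.09 CPM, and 11.1 and 16.7 CPM in the same order, and fell by 1.53 (SE 0.30, edgeR adjusted p = 0.0193). Epha5 and Epha6 fell by 1.32 and 1.26 (largest edgeR adjusted p = 0.00847). The 5 other EphA receptors had log2 fold changes from 0.16 to 0.69, and none of them passed the adjusted threshold in edgeR or had an unadjusted p under 0.05. One of these was Epha4, the highest EphA receptor, with 71.5 and 68.9 CPM in sham, 78.6 CPM in the 6-OHDA library and 54.1 and 95.8 CPM with NDST3. Of the EphB receptors, Ephb6, which also lacks kinase activity, fell by 0.84 (SE 0.12, edgeR adjusted p = 0.00991), and Ephb4, known from veins, rose by 0.80 in log2 units (SE 0.21, edgeR adjusted p = 0.0409), or 0.60 without sham replicate 2. Ephb4 had 14.5 and 10.8 CPM in sham, 22.1 CPM in the 6-OHDA library and 9.76 and 10.1 CPM with NDST3. Ephb1 had 89.9 and 105 CPM, 49.9 CPM, and 112 and 73.9 CPM, and its log2 fold change of -0.97 had an edgeR adjusted p of 0.0504.

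Of the 8 ephrins 3 fell and 2 rose. Efna3 had 24.6 and 31.9 CPM in sham, 12.4 CPM in the 6-OHDA library and 25.4 and 24.8 CPM with NDST3, a log2 fold change of -1.19 (SE 0.20, edgeR adjusted p = 0.0136). Efna5 and Efnb2 fell by 0.86 and 0.67. Efnb1 had 10.6 and 7.65 CPM in sham, 18.5 CPM in the 6-OHDA library and 6.74 and 8.91 CPM with NDST3, and rose by 1.02 (SE 0.28, edgeR adjusted p = 0.0429). Efna1 rose by 0.90 (edgeR adjusted p = 0.0429). Efna4, with a mean of 0.761 CPM, was higher by 1.80 (SE 0.53) and passed the 2-fold rule but not the adjusted threshold. Efnb3 had 228 and 222 CPM in sham, 161 CPM in the 6-OHDA library and 208 and 156 CPM with NDST3. Its log2 fold change of -0.48 did not pass (edgeR adjusted p = 0.117).

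Of the 11 semaphorin receptors, 4 rose and 1 fell. Plxnd1 (chromosome 6, 115954811 to 115995339), a plexin of endothelial cells and a receptor of Sema3e, had 22.5 and 19.9 CPM in sham, 81.4 CPM in the 6-OHDA library and 23.9 and 42.1 CPM with NDST3. It rose by 1.94 in log2 units (SE 0.33, edgeR adjusted p = 0.0134), a 3.84-fold difference. Plxnb2 (chromosome 15, 89155546 to 89182018), a receptor of class 4 semaphorins, had 101 and 83.8 CPM, 261 CPM, and 137 and 165 CPM in the same order, a 2.83-fold difference (SE 0.17 in log2 units, edgeR adjusted p = 0.00847). Both neuropilins rose, and their summed level was 14.7 and 11.3 FPKM in sham and 32.2 FPKM in the 6-OHDA library. Nrp1 (chromosome 8, 128358591 to 128505476), which binds class 3 semaphorins and VEGF, had 45.9 and 41.3 CPM in sham, 118 CPM in the 6-OHDA library and 52.5 and 66.9 CPM with NDST3. Its rise was 1.44 (SE 0.17, edgeR adjusted p = 0.00847). Nrp2, the coreceptor preferred by Sema3f, had 47.1 and 34.7 CPM, 88.4 CPM, and 39 and 54.2 CPM, a rise of 1.11 (SE 0.26, edgeR adjusted p = 0.0303). Plxna4, a partner of the neuropilins in neurons, was the only plexin called lower, with a log2 fold change of -0.97 (edgeR adjusted p = 0.0265). The other 6 plexins had log2 fold changes from -0.83 to 0.35 and did not pass.

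Of the 20 semaphorins, 2 rose and 5 fell. Sema3d (chromosome 5, 12383161 to 12588953), a secreted semaphorin, had 18.8 and 13.9 CPM in sham, 53.6 CPM in the 6-OHDA library and 20.5 and 25.7 CPM with NDST3, and rose by 1.72 in log2 units (SE 0.23, edgeR adjusted p = 0.00922). Sema4d, a membrane semaphorin of immune cells and oligodendrocytes, rose by 0.84 (SE 0.13, edgeR adjusted p = 0.012). The members called lower were Sema6c, Sema4a, Sema6b, Sema4f and Sema3e, with log2 fold changes from -1.24 to -0.54. Sema3f, which repels axons that carry Nrp2, had 24.6 and 47 CPM in sham, 9.78 CPM in the 6-OHDA library and 46.6 and 21.1 CPM with NDST3. The libraries of a group lay far apart, and its log2 fold change of -1.87 (SE 0.64) passed the 2-fold rule with an unadjusted p but not the adjusted threshold (edgeR adjusted p = 0.078). The fold change was -1.33 without sham replicate 2. Sema7a had 123 and 156 CPM in sham, 94.3 CPM in the 6-OHDA library and 148 and 100 CPM with NDST3 (log2 fold change -0.57, edgeR adjusted p = 0.176). Neuron markers, all 10 of which were called lower, moved in this comparison too. Also called lower were markers of dopaminergic (10 of 10) and serotonergic neurons (5 of 5) and of thalamus and tectum (2 of 5). Called higher were markers of microglia (7 of 7), oligodendrocyte precursors (5 of 5), monocytes or macrophages (5 of 7) and neutrophils (3 of 4). The same held for mural cells or fibroblasts (6 of 8), hypothalamus (4 of 7) and endothelial cells (4 of 8). Of the 8 astrocyte markers, 5 were called higher and 1 lower. The part of these cell types and regions in the changes of the guidance genes was not tested.

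The sequences before 1 listed start of each of 6 called members are shown because they include the largest fall and the largest rise (Epha10 and Plxnd1) and called members with a listed H3K27ac region (Epha5, Ephb6 and Nrp1), together with Sema3d, which rose. They are the 250 bases before the single start that the RefSeq promoter table on GRCm38 lists for each gene. The widest annotated span of the gene, as in the coordinates given here, begins upstream of the stretch for all of them but Sema3d. The other 5 stretches thus lie inside that span. The Sema3d span begins at 12383161, so only the last bases of its stretch lie inside. Each is written 5′ to 3′ in the direction of the gene. Capitals mark GC boxes, the letters GGGCGG or their reverse complement CCGCCC.
Epha10, chr4:124881535-124881784, plus strand: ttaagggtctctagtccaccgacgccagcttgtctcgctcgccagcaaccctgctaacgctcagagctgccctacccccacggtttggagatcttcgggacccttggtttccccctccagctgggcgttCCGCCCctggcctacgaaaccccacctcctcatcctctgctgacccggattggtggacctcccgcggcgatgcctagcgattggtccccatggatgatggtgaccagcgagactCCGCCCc
Epha5, chr5:84417383-84417632, minus strand: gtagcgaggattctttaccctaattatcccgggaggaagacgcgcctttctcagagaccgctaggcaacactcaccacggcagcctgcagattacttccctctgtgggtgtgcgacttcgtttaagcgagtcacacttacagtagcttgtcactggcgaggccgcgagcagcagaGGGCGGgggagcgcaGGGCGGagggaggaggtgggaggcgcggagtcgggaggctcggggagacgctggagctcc
Ephb6, chr6:41605261-41605510, plus strand: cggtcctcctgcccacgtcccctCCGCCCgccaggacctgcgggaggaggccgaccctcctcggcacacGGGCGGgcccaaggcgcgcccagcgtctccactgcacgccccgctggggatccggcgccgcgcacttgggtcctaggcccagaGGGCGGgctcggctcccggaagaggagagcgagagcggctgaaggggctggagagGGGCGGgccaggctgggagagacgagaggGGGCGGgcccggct
Plxnd1, chr6:115995006-115995255, minus strand: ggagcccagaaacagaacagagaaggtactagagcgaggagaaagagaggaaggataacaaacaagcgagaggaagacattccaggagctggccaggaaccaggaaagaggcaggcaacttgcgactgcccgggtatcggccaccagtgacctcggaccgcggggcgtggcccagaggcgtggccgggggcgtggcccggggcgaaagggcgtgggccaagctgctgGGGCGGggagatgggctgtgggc
Nrp1, chr8:128358823-128359072, plus strand: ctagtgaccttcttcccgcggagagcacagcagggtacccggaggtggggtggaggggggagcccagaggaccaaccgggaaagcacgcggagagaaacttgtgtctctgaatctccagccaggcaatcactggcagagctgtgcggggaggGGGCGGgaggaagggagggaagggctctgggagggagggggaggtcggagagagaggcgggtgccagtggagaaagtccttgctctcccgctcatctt
Sema3d, chr5:12382916-12383165, plus strand: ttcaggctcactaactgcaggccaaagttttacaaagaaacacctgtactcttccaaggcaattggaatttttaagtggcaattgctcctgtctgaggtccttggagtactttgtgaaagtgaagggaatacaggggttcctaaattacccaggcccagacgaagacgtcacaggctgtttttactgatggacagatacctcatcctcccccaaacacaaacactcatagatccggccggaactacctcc
The first 3 of these genes fell in the 6-OHDA library and the last 3 rose. Ephb6 held 5 GC boxes, Epha5 and Epha10 held 2 each, Nrp1 and Plxnd1 1 each, and Sema3d none. Promoter sequences matched 59 of the 69 members, with 75 starts. A GC box on either strand lay in the 250 bases before 73.1% of the 26 starts of members called lower and 69.2% of the 13 starts of members called higher. The share was 69.4% of the 36 starts of members not called and 70.7% of all 75 starts of members, beside 32.7% of the 32851 starts of all genes. The E-box CACGTG, whose letters read the same on both strands, was before 4 of the 75 starts (5.33%), beside 6.02% of all. The median GC content was 64.4% for the members and 52.4% for all. A match of letters is a description of the sequence and does not show that a factor binds.

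**Figure D3:**
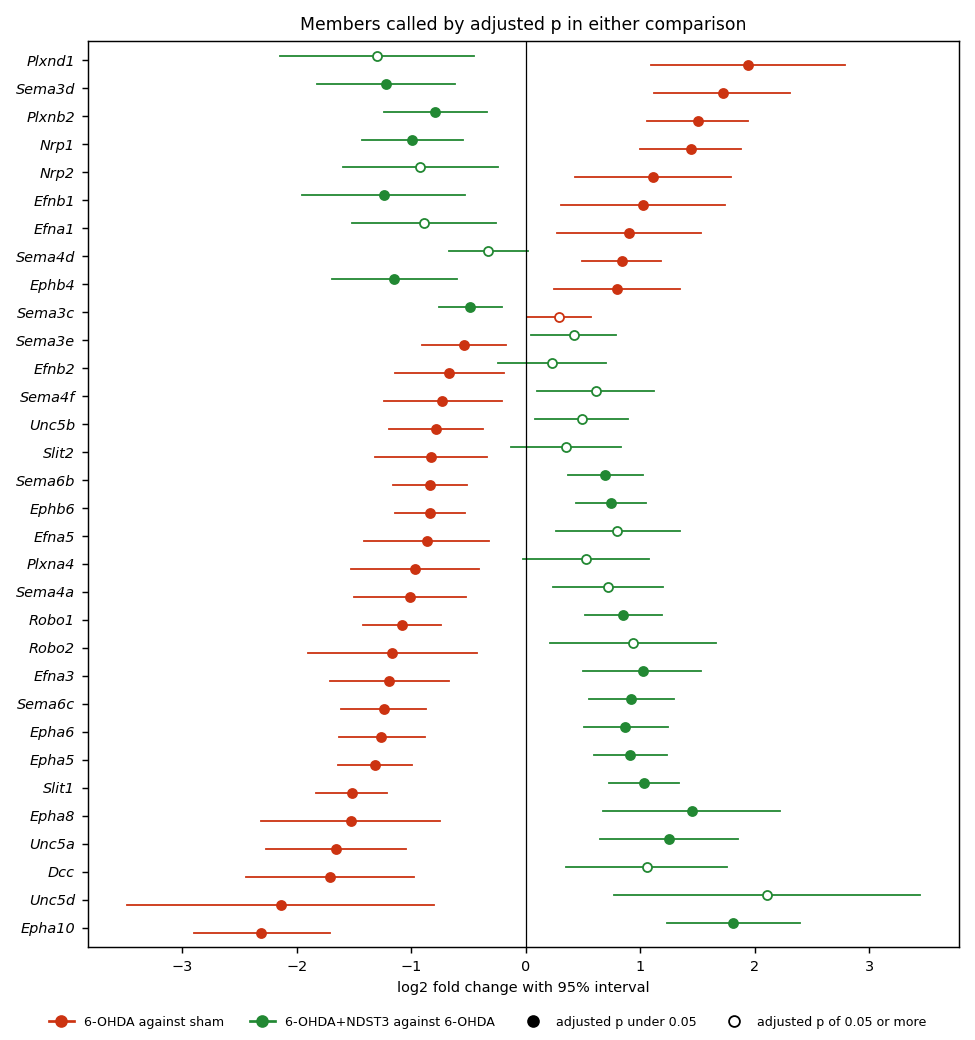
Log2 fold change with its 95% interval of the 32 members called by adjusted p in at least 1 of 2 comparisons, 6-OHDA against sham (red) and 6-OHDA+NDST3 against 6-OHDA (green), ordered by the first. Filled points have an adjusted p under 0.05, and both comparisons contain the same single 6-OHDA library. Epha10 lies at -2.31 and 1.81 and Plxnd1 at 1.94 and -1.30.

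Between the NDST3-treated and the 6-OHDA-induced PD model, more members were higher than lower. With NDST3, 11 members were higher and 6 lower at an adjusted p under 0.05 by edgeR (15.9% and 8.7% of the members), beside 9.06% and 6.59% of all genes, 15.6% in all. The median log2 fold change of the members was 0.13, beside 0.00 for all genes. At 2-fold with an unadjusted p under 0.05, 8 members were higher and 7 lower, beside 7.3% and 8.37% of all genes (15.7% in all), and 37 members had an unadjusted p under 0.05, beside 37.9% of all genes. The groups did not overlap for 59 members, 31 higher and 28 lower with NDST3, beside 42.4% and 43.2% of all genes (85.6% in all). This comparison shares the 6-OHDA library with the one above, so that the deviations of this library enter both with opposite signs. The adjusted calls changed with the libraries in the fit. Sham libraries are not among the groups compared here, and enter the test through the shared estimate of the spread. With each replicate left out, the log2 fold change ranged from 1.62 to 1.94 for Epha10 and from 0.95 to 1.08 for Slit1. The ranges were wider for Unc5d (1.56 to 2.47) and Sema3f (1.11 to 2.22). Without sham replicate 1, sham replicate 2 or NDST3-treated replicate 1, 0 members passed by edgeR (28, 28 and 34 with an unadjusted p under 0.05), whereas without NDST3-treated replicate 2, 26 passed. At 2-fold the 4 counts were 13, 13, 11 and 20.

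The largest rise among called members was that of Unc5d, 2.11 in log2 units (SE 0.52), which passed the 2-fold rule but not the adjusted threshold (edgeR adjusted p = 0.0546). It was followed by Epha10 with 1.81 (SE 0.22, edgeR adjusted p = 0.032), Sema3f with 1.79 (SE 0.64, edgeR adjusted p = 0.113), Epha8 with 1.45 (SE 0.30, edgeR adjusted p = 0.0433) and Unc5a with 1.25 (SE 0.23, edgeR adjusted p = 0.0378). Without NDST3-treated replicate 1 the values were 1.56 for Unc5d and 1.11 for Sema3f. Slit1 and Efna3 rose by 1.03 and 1.02 (edgeR adjusted p = 0.032 and 0.0407), and Dcc was higher by 1.06 without passing the adjusted threshold (edgeR adjusted p = 0.0602). Epha5, Epha6, Ephb6, Robo1, Sema6b and Sema6c rose by 0.69 to 0.92. These genes were at their lowest in the 6-OHDA library. The NDST3-treated libraries overlapped the sham range for Epha8, Unc5d, Sema3f, Efna3 and Ephb6. They lay below both sham libraries for Epha10, Unc5a, Slit1, Dcc, Epha5, Epha6, Robo1, Sema6b and Sema6c. The neuron markers summed to more CPM in both NDST3-treated libraries, with 8 of 10 called higher. Serotonergic (5 of 5) and dopaminergic neuron markers (4 of 10) were called higher too. The part of these cells in the rises was not tested.

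The largest fall was that of Sema3a, a secreted repellent that binds Nrp1. Its level was low, with 8.02 and 4.95 CPM in sham, 11.4 CPM in the 6-OHDA library and 5.27 and 2.92 CPM with NDST3. The log2 fold change of -1.47 (SE 0.45) passed the 2-fold rule with an unadjusted p and not the adjusted threshold (edgeR adjusted p = 0.0822). Among members that averaged 1 CPM or more, Plxnd1 followed with -1.30 (SE 0.33, edgeR adjusted p = 0.0575). Its value was -0.95 without NDST3-treated replicate 1 and -1.80 without replicate 2. Efna4, with a mean of 0.761 CPM, fell by 1.39 (SE 0.52) and passed the 2-fold rule but not the adjusted threshold. Efnb1 fell by 1.24 (SE 0.28, edgeR adjusted p = 0.0468), Sema3d by 1.22 (SE 0.23, edgeR adjusted p = 0.0391) and Ephb4 by 1.15 (SE 0.21, edgeR adjusted p = 0.0376). Nrp1, Plxnb2 and Sema3c fell by 0.99, 0.79 and 0.49 (largest edgeR adjusted p = 0.0462). The NDST3-treated libraries still lay above both sham libraries for Plxnd1, Sema3d, Nrp1 and Plxnb2. They lay below both for Ephb4 and Sema3c, and overlapped the sham range for Sema3a, Efna4 and Efnb1. Among cell type markers, those of mural cells or fibroblasts (7 of 8), oligodendrocyte precursors (3 of 5) and endothelial cells (4 of 8) were called lower in the same comparison. The share was 1 of 8 for astrocytes and 1 of 7 for monocytes or macrophages. For microglia it was 0 of 7 (6 with an unadjusted p under 0.05 by edgeR). The part of these cell types in the falls was not tested.

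The NDST3-treated PD model was not separated from sham at these thresholds. By edgeR 0 members passed the adjusted threshold, beside 0% of all genes, and 18 had an unadjusted p under 0.05, beside 14.2% of all genes. At 2-fold with an unadjusted p, 0 members passed, beside 4.78% higher and 1.08% lower of all genes (5.86% in all). DESeq2 called 5 members (2 higher and 3 lower), and limma on log2(FPKM + 1) called 0. Without NDST3-treated replicate 1, 2 members passed the 2-fold rule. The median log2 fold change was -0.14, beside 0.01 for all genes, with 50 of the 69 members below and 19 above 0. The libraries of the groups did not overlap for 34 members, 27 lower and 7 higher, beside 22.4% and 26.5% of all genes (48.9% in all). The members farthest from sham were Ntn1, with a log2 fold change of -0.72 (SE 0.15, edgeR adjusted p = 0.168), Plxnb2 with 0.71 (SE 0.15, edgeR adjusted p = 0.172) and Dcc with -0.65 (SE 0.21, edgeR adjusted p = 0.289), apart from the low and scattered Epha1 and Sema3a. A missed threshold with 2 libraries a group does not show that the levels were equal.

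Genes that work with these receptors were counted as a list of 63 coreceptors, adhesion molecules and intracellular partners. Against sham, 24 of them fell (38.1%) and 14 rose (22.2%) in the 6-OHDA library by the adjusted threshold, beside 17.1% and 18.8% of all genes. Those that fell included Limk1, a kinase of the actin regulator cofilin, with 181 and 197 CPM in sham and 58 CPM in the 6-OHDA library. Srgap3, which links Robo receptors to Rac, and the adhesion molecule L1cam had log2 fold changes of -1.36 and -1.29 (largest edgeR adjusted p = 0.0129). Those that rose included Rhoa by 1.08, Cdc42 by 0.85 and Rac1 by 0.60, GTPases of every cell, and Rhod by 2.18 and the kinase Fes by 2.80 (largest edgeR adjusted p = 0.0168). With NDST3, 15 of the 63 rose (23.8%) and 4 fell (6.35%) relative to the 6-OHDA library, beside 9.06% and 6.59% of all genes. One that fell was Rras, a GTPase acted on by plexins, with a log2 fold change of -1.24 (edgeR adjusted p = 0.0346).

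The single-cell table gives the mean of each gene in 9 clusters, for 1 library of the 6-OHDA-induced and 1 of the NDST3-treated PD model, with values that fit natural logarithms of normalized counts after adding 1. Cell numbers, depth and barcodes are not in the table, and no test was possible. Per the study's methods, cells with very many detected genes were removed against multiplets, and no doublet caller is named. The table holds means only, so none was applied here. By the marker lists, cluster 7 was endothelial-like (8 of 8 markers highest there), cluster 6 microglia-like (7 of 8) and cluster 4 T cell-like (8 of 8). Cluster 9 was B cell-like (6 of 6) and cluster 1 neutrophil-like (7 of 7). Cluster 5 was called mural-like, with 5 of 8 markers of mural cells or fibroblasts highest there. Its leading genes included Acta2 and Myh11. Cluster 2 held astrocyte, oligodendrocyte and choroid plexus markers together, and clusters 3 and 8 were not named. Also highest in cluster 2 were 4 of 5 oligodendrocyte precursor markers and 3 of 8 markers of mural cells or fibroblasts. These names rest on the lists used here and differ in part from the names in the study. There, clusters 4 and 8 are named dopaminergic neurons or progenitors, cluster 5 fibroblasts, cluster 9 undefined and cluster 1 leukocytes. Neuron markers were near 0, with a highest median of 0.034 in cluster 2, where 1 of the 10 exceeded 0.1.

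Of the 69 members, 44 had a deposited mean above 0.1 in at least 1 cluster of either library. Cluster 2 held 31 of them (44.9% of the members, beside 36.9% of all genes), cluster 7 held 23 (33.3% beside 28.7%) and cluster 5 held 19 (27.5% beside 28%). The other clusters held 4 to 8 members each. The shares were 8.7% in cluster 1 (21.9% of all genes), 10.1% in cluster 3 (25.1%), 8.7% in cluster 4 (24.4%), 11.6% in cluster 6 (24.8%), 11.6% in cluster 8 (25.4%) and 5.8% in cluster 9 (24.9%). The highest member was Sema3c, a class 3 semaphorin, with 1.641 in the endothelial-like cluster and 0.075 in the next, cluster 2, given like the values that follow as means of both libraries. That cluster also led for Sema6a (1.261), Nrp1 (1.196), Sema7a (0.859), Plxna2 (0.852), Epha4 (0.737) and Robo4 (0.510). The mural-like cluster led for Ntn4 (1.143), a netrin of basement membranes, Slit3 (0.773) and Sema5a (0.673). Plxna4 was highest in the microglia-like cluster (0.996), and Nrp2 in cluster 3 (0.886). Sema4d was spread over the clusters and was lowest in clusters 5 and 7, with 1.289 in the neutrophil-like and 1.203 in the microglia-like cluster. Cluster 2 led for Slit2 (1.014), Sema6d (0.762) and Unc5c (0.694).

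**Figure D4:**
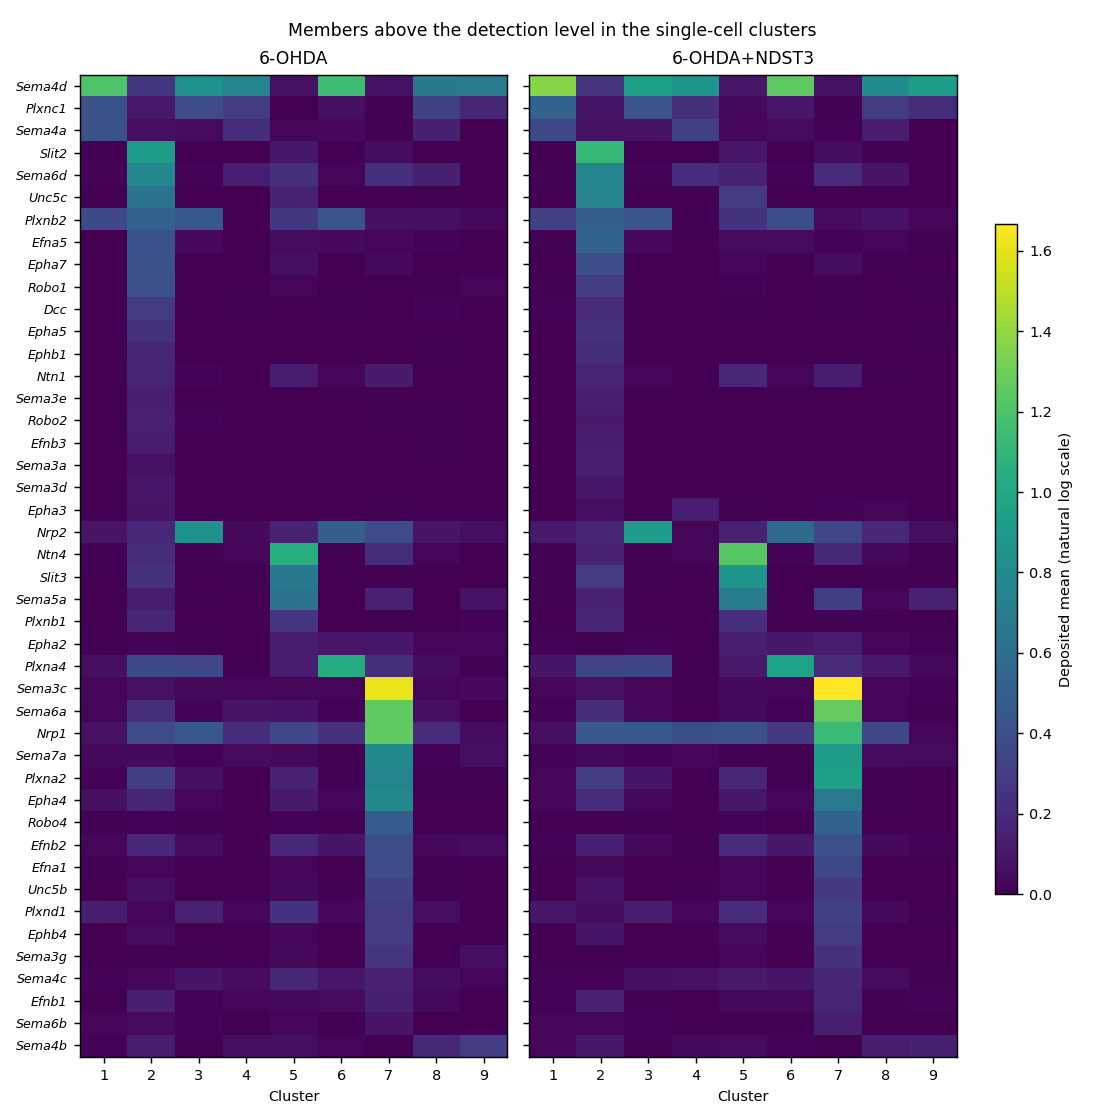
Deposited mean, on a natural log scale, of the 44 members above 0.1 in at least 1 of the 9 single-cell clusters, in the 6-OHDA (left) and the NDST3-treated library (right), ordered by the cluster of the highest mean. Sema3c is brightest in cluster 7 (up to 1.667), Ntn4 in cluster 5 and Sema4d in clusters 1 and 6, and the panels look alike.

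The members called in the bulk libraries were looked up in these clusters. All 9 members called higher in the 6-OHDA library exceeded 0.1 somewhere, with a median highest mean of 0.378. Of the 9, 5 were highest in the endothelial-like cluster (Nrp1, Plxnd1, Efna1, Ephb4 and Efnb1), beside 16 of all 44 members above 0.1. Efnb1 was nearly as high in cluster 2 (0.153) as in the endothelial-like cluster (0.161). The share among all genes called higher was not counted. Of the 22 called lower, 12 exceeded 0.1, with a median highest mean of 0.142. Among those that did not were Epha10 (highest mean 0.028), Unc5a (0.026), Efna3 (0.019), Slit1 (0.007) and Epha8, listed at 0 in every cluster. For all genes the shares above 0.1 were 86.3% of those called higher and 66% of those called lower, so the same order of shares was seen among all genes. Of the 11 members higher with NDST3, 3 exceeded 0.1 (27.3%), beside 61.9% of all genes called higher.

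Between the single-cell libraries the differences in the deposited means of the members were small. None of the 621 pairs of member and cluster differed by 1 or more in log2 units, beside 0.00917% of all pairs higher and 0.00334% lower. The differences (NDST3-treated minus 6-OHDA) ranged from -0.22 to 0.35. Means on this log scale limit the size rule, because a low mean cannot fall by 1. For 25 of the 69 members no cluster mean exceeded 0.1. A small difference between low means can still be a large ratio, so the rule does not show that levels were equal. With a smaller size rule of 0.25, 6 pairs were higher with NDST3 and 0 lower, beside 0.425% and 0.497% of all pairs. The largest was Sema4d in the B cell-like cluster, with 0.691 in the 6-OHDA and 0.932 in the NDST3-treated library. The others were Slit2 in cluster 2 (0.916 and 1.112), Plxna2 in the endothelial-like cluster (0.755 and 0.949), Slit3 (0.677 and 0.868) and Ntn4 (1.053 and 1.232) in cluster 5 and Nrp1 in the T cell-like cluster (0.220 and 0.400). The table has no replicates, so these differences carry no error.

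H3K27ac, a mark of active promoters and enhancers, was listed in 33 regions at 21 members (30.4% of the members, beside 34.4% of all genes tested). Each group has a single column that pools its 2 libraries, so ratios have no replicate error. Regions are described by the distance to the start that the authors gave, because their positions did not match the starts of GRCm38. Between the 6-OHDA group and sham, 24 member regions had more (72.7%) and 9 less signal, whereas 57.9% of all 11326 regions had more. The median ratio was 1.14 for the member regions, beside 1.09 for all regions. Changes of 2-fold or more were seen in 3 regions upward and 1 downward, beside 7.77% and 4.52% of all regions. The upward ones were Epha3 at 152 bases before the start (2.52 in sham, 13.40 in 6-OHDA), Sema3c at 488 bases before it (9.39 and 22.10) and Efna1 at 173 bases before it (9.84 and 21.85). The downward one was Ntn4 at 227 bases before the start (13.48 and 5.95). Other regions of these genes did not all move alike. Epha3 had 10.08 in sham and 6.45 in 6-OHDA at 50 bases after the start, and Ntn4 9.69 and 9.90 at 85 bases before it. Sema3c at 239 bases before the start had 12.17 and 20.85.

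RNA and H3K27ac were set side by side for the members with both. For the 7 members whose RNA fell with 6-OHDA, 11 of 16 regions had more signal than sham and 5 had less, with ratios from 0.665 to 1.65. Robo2 had 5 regions, and all 5 rose in signal, as in the region 27 bases before the start from 12.06 to 20.60. At Epha5 (444 bases before the start) the signal was 26.68 in sham and 22.85 in the 6-OHDA group. The regions of Ephb6 moved in opposite directions, from 21.64 to 23.35 at 63 bases before the start and from 23.62 to 20.40 at 302 bases. For the 3 members with higher RNA, the signal went from 30.16 to 18.40 at Nrp1 (509 bases before the start), from 33.19 to 25.85 at Sema4d (84 bases after it) and from 9.84 to 21.85 at Efna1. The signal moved in the direction of the RNA in 6 of these 19 regions, of which 16 lie at members with lower RNA. Among all 11326 listed regions, 57.9% had more signal in the 6-OHDA group than in sham. The share of regions that moved with the RNA was not counted over all genes, so the count is no trait of the members.

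With NDST3, 33 of 33 member regions had more H3K27ac signal than in the 6-OHDA group. No region of the whole table had less, and 97.1% had more, so that direction carries no information about the members. Whether regions were selected on this comparison before deposit is not given in the sources used here, and the shares, counts and ratios given for H3K27ac hold for the listed regions only. The median ratio was 1.33 for the members and 1.31 for all regions. At 2-fold or more there were 3 regions, beside 11.1% of all, at Epha3 (50 bases after the start, 6.45 and 21.83), Ntn4 (85 bases before it, 9.90 and 26.10) and Efnb2 (383 bases before it, 13.15 and 33.31). When ratios were divided by the median ratio of all regions, 1 of them remained past 2-fold. Robo1 at 271 bases before the start, with 13.40 and 27.79, lay just under 2-fold once 1 was added to each signal. Against sham, 12 member regions were 2-fold or more higher with NDST3 and 0 lower, beside 25.7% and 0.636% of all regions, and 3 of 33 passed after division by the median ratio.

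**Figure D5:**
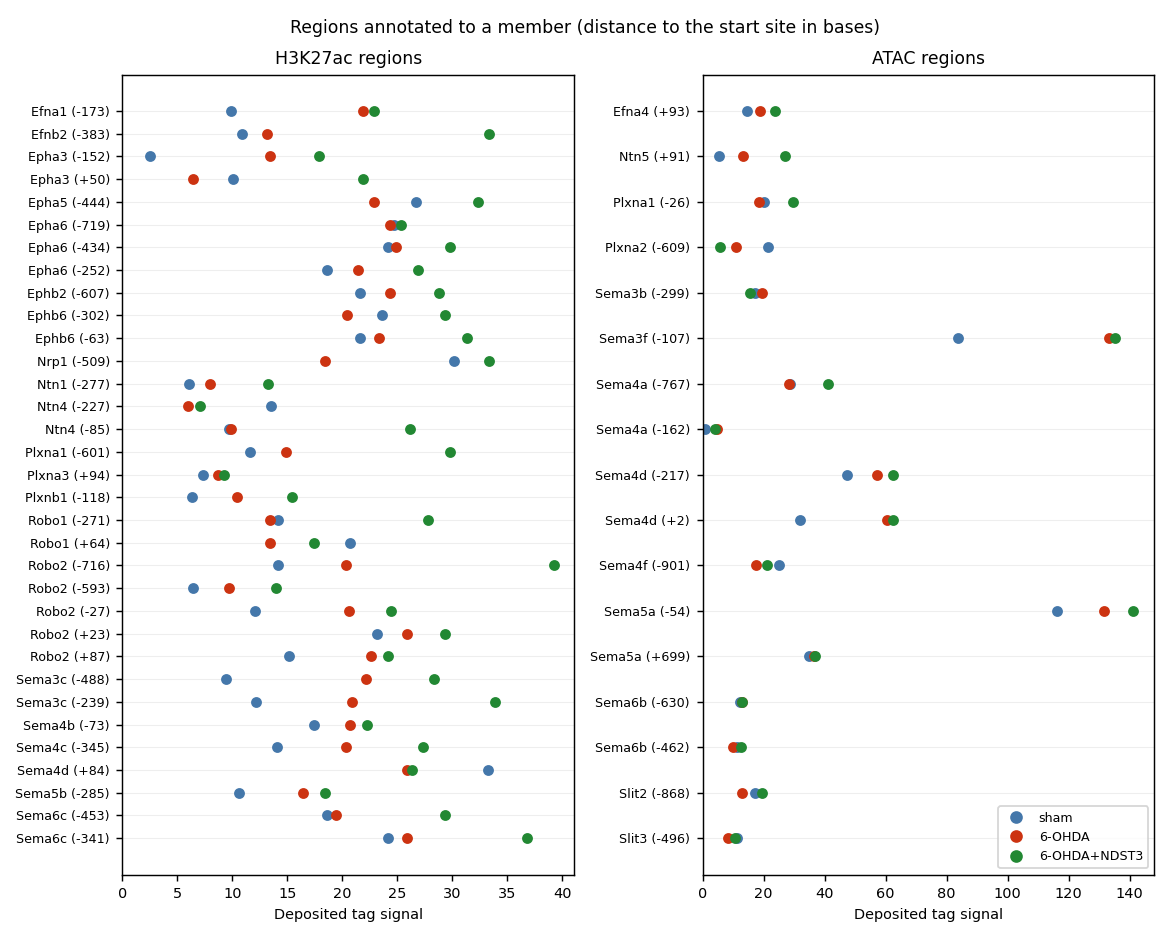
Deposited tag signal of the 33 H3K27ac and 17 ATAC regions annotated to a member, 1 point for each group, with the distance to the start in bases in parentheses. The green points of the NDST3-treated PD model lie right of the red points of the 6-OHDA-induced PD model in each H3K27ac region, whereas the ATAC points mix, with Sema5a and Sema3f highest.

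Open chromatin by ATAC-seq, with 1 library a group, was listed in 17 regions at 13 members (18.8% of the members, beside 9.82% of all genes tested). The highest signals were at Sema5a, 54 bases before its start (116.12 in sham, 131.75 in the 6-OHDA and 141.11 in the NDST3-treated library), and at Sema3f, 107 bases before it (83.87, 133.25 and 135.09). The RNA of Sema3f was at its lowest in the 6-OHDA library, where this signal was above that of sham. Sema4d, whose RNA rose, had 32.07, 60.50 and 62.48 at 2 bases after the start. At 2-fold or more in the 6-OHDA library against sham, 2 regions were higher and 0 lower, beside 4.58% and 5.06% of all 3537 regions, at Ntn5 (5.30 and 13.25) and Sema4a (0.95 and 4.75, 162 bases before the start). With NDST3 against 6-OHDA, 0 regions reached 2-fold, beside 4.41% higher and 3.53% lower of all regions. Against sham 2 were higher and 1 lower, beside 8.37% and 5.91%, and the lower one was Plxna2, with 21.62 in sham and 5.76 with NDST3. Plxna1 and Sema4d were the members with regions in both assays, and 37 members had a region in neither.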

How the data were processed

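RNA-seq, CUT&RUN for H3K27ac, ATAC-seq and scRNA-seq of mouse brain were analysed from deposited tables, grouped by the sample titles. The members and gene lists were chosen with earlier results of these data known. Per the study's methods, the authors used Trimmomatic for trimming, HISAT2 for alignment (mm10) and StringTie for quantification of RNA-seq reads, and deposited a count, FPKM and TPM per gene. The submitters' processing notes also name Trim Galore, Bowtie, Cell Ranger and mm10. Tag signal per region was deposited by the authors with a normalization not given in the sources used here. The scRNA-seq means were deposited as mean counts, but their values match a natural log scale by the authors. The sham scRNA-seq library was not analysed here.

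Counts were fitted with edgeR 4.0.16 in R 4.3.3 (TMM factors, default filter, quasi-likelihood test over 5 libraries, 2 residual degrees of freedom, biological coefficient of variation 20.3%), with Benjamini-Hochberg adjustment over 19300 genes. Standard errors are the log2 fold change divided by the square root of F. No gene of the table is at 0 in any library. Total counts ranged from 51003699 to 70533326, and counts of members from 9 to 15310. CPM values are scaled by TMM factors of 0.979 to 1.02. Of 32 called members, 18 overlap another RefSeq gene, 2 of them (Unc5a and Epha5) a protein-coding one, and the strand setting of the counting is not given. The fits of 6-OHDA against sham and of 6-OHDA+NDST3 against 6-OHDA were tested on simulated data, and that of 6-OHDA+NDST3 against sham was not. Ratios of signal were taken after adding 1, for regions with a signal of at least 1 in 1 group. Per region, 2.8% of H3K27ac and 8.21% of ATAC positions fitted a GRCm38 start within 50 bases, so no sequence was read by position. Values were printed for each library of the 5 largest rises and falls per comparison among members that passed either rule and averaged 1 CPM or more, and for the member with the highest mean FPKM in each family. Alternatives were DESeq2 1.42.0, limma 3.58.1 (log2 FPKM, pseudocount 1 or 0.1), other scalings and filters, a replicate block and fits without each replicate. Calculations outside R used Python 3.11.15.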

Additional observations from a re-analysis of the deposited data

How the results depend on the processing

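Of the alternatives, scaling factors and filters left the counts of called members within 1.5 times, and the median for 6-OHDA against sham was -0.34 with a filter of CPM of at least 1 in 2 libraries. With each replicate left out, the adjusted calls for 6-OHDA against sham ranged from 0 to 35, the 2-fold calls from 14 to 27 and the median from -0.31 to -0.20. For 6-OHDA+NDST3 against 6-OHDA they ranged from 0 to 26, from 11 to 20 and from 0.05 to 0.13, and against sham from 0 to 0, from 0 to 2 and from -0.20 to -0.11. Adjusted calls for 6-OHDA+NDST3 against 6-OHDA numbered 31 with DESeq2, 8 with limma on log2(FPKM + 1), 8 on log2(FPKM + 0.1) and 0 with only those libraries, where fewer libraries estimate the spread, and DESeq2 called 5 against sham. The 2-fold calls with limma on log2(FPKM + 1) were 12 and 5 for the first 2 comparisons. The replicate numbers did not pair the libraries (r = -0.432 across genes). With a replicate block, adjusted calls were 12, 0 and 0 in the 3 comparisons, and the first median was -0.30. The crossed pairing, added after seeing the data, gave 37, 28 and 6. Of the 23 members with values per library, some changed sign. Epha4 was -0.07 (6-OHDA against sham) and 0.11 (NDST3-treated against 6-OHDA) with the crossed block. With each replicate left out, NDST3-treated against 6-OHDA, Epha4 ranged from -0.57 to 0.29 and Efnb3 from -0.05 to 0.34. Against sham the ranges were -0.40 to 0.45 for Epha4, -0.35 to 0.03 for Efna3, -0.46 to 0.03 for Efnb1, -0.43 to 0.18 for Epha8, -0.40 to 0.18 for Ephb1, -0.09 to 0.42 for Nrp2, -0.77 to 0.46 for Sema3f, -0.48 to 0.06 for Sema7a and -0.58 to 0.34 for Unc5d. The causes were not tested.

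At 1.5-fold, 10, 9 and 20 H3K27ac and 5, 3 and 6 ATAC regions passed in the 3 comparisons. A pseudocount of 0.1 gave 1 ATAC region for 6-OHDA+NDST3 against 6-OHDA, and a signal of at least 5 gave 1 for 6-OHDA against sham. Division by the median ratio, added after seeing the data, gave 1 and 3 H3K27ac regions for the comparisons with NDST3. A detection level of 0.05 gave 9 members in single-cell cluster 9, and a size rule of 0.25 gave 6 pairs. Low counts limited the precision of Ntn5, Robo3 and Epha1.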
